A study of Drosophila melanogaster with 3 samples.

Results

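Chromatin immunoprecipitation followed by sequencing (ChIP-seq) mapped the protein of the fly gene CG4820 in whole Drosophila melanogaster embryos. The material was 1 group of 3 biological replicates of mixed-sex embryos aged 0 to 16 h, all from 1 transgenic line that stably expresses CG4820 with green fluorescent protein (GFP) at its C-terminal end. The tagged protein was pulled down with an antibody against GFP, after sonication to fragments of 200 to 800 bp. The sample descriptions name that antibody, while the antibody field of the labels reads CG4820. No untagged, mutant or treated embryos are part of the group, so the comparisons are between classes of peaks. Described here are the distal peaks, chosen from the authors' final reproducible list (the optimal list, dm6 build). A peak counted as distal if its summit was more than 5000 bp from every annotated transcription start site (TSS) of the Ensembl gene models, with pseudogenes and transposable elements left out. The rule uses position alone, and 801 of 4876 optimal peaks met it (16.4%, 95% Wilson interval 15.4 to 17.5%). The other 4075 include 2300 peaks within 500 bp of a TSS and, farther out, 1174 in introns and 501 between genes. The rest of the 4075 lay farther out in exons. Intervals on shares cover counting error only, and sequencing depth is unknown because the files hold peaks without read totals. Whole embryos mix many cell types, so a peak found in few cells and a weak peak found in many cannot be told apart.

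Transcription factors bind DNA both beside gene starts and far from them. In flies, as in other animals, much of the sequence that switches developmental genes on in a given tissue lies in long introns and in wide gaps between genes, as enhancers and silencers that act on a promoter at a distance. A distance to a TSS is a description of position only: a summit far from every start can belong to an enhancer, to an insulator, or to a start that no gene model records, and ChIP-seq alone does not tell these apart.

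The strongest distal peaks had summits in sequence rich in A and T. The sequences below are 101 bp of the plus strand centred on the summit, which is the capital letter. They are shown for 6 of the 8 distal peaks of highest signal, so that their base composition can be seen. The letters come from the RefSeq assembly that dm6 stands for. In order of signal they lie at chr3L:16744089-16744189 (between CG9701 and CG42852), chr3L:8458285-8458385 (intron of Gug), chr2L:1638700-1638800 (between lncRNA:CR44603 and lncRNA:CR45695), chr3L:14304019-14304119 (intron of fz), chr3L:11084738-11084838 (intron of JIL-1) and chr3R:14012686-14012786 (intron of rdx).
CG9701 to CG42852: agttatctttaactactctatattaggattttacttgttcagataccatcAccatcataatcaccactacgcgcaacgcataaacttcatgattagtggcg
Gug: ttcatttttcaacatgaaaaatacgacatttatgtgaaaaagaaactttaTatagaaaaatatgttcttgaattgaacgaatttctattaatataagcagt
lncRNA CR44603 to CR45695: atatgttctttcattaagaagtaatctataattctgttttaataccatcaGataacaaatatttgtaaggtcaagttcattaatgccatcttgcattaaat
fz: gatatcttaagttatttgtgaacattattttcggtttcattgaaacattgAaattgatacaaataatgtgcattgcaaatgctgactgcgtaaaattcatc
JIL-1: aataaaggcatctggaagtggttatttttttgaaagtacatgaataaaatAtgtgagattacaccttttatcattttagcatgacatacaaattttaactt
rdx: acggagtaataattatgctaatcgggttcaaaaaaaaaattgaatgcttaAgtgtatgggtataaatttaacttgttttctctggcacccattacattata
A+T made up 63.4% of the CG9701 window, 78.2% of the Gug window, 75.2% of the window by lncRNA:CR45695, 71.3% at fz, 74.3% at JIL-1 and 70.3% at rdx. The windows of the other 2 of these 8 peaks, between Su(z)2 and CG13323 and in Hr3, are not printed and had 73.3% and 69.3%. Over all bases more than 5000 bp from a TSS it made up 58.8%.

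The same held for the distal peaks as a class, and the neighbouring sequence was poorer in A+T than the genome around it. Within 50 bp of the summit the distal peaks had 67.9% ± 7.54 A+T (SD over 801 peaks), and 137 of them exceeded 75%. In their flanks of equal size at 300 bp the value was 54.6% ± 7.95, with 6 windows above 75%. The other optimal peaks had 66.8% ± 8.78 at the summit and 55.5% ± 8.30 in the flanks (SD over 4075 peaks). Intronic and intergenic distal peaks were alike in this, with 67.9% and 68.1% at the summit. Farther out the classes parted: at 900 to 920 bp downstream on the plus strand A+T was 60.5% at distal peaks and 57.1% at the other peaks. Sequence marked as repeat in the RefSeq file made up 22.0% of the distal summit windows, against 22.3% at the other peaks.

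**Figure D1:**
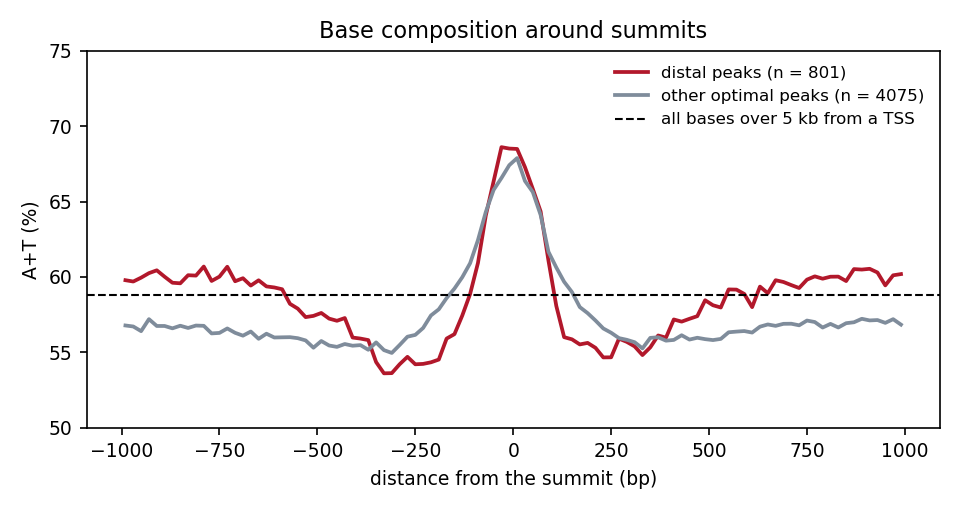
Mean A+T content in percent, in steps of 20 bp, against distance from the summit in bp along the plus strand, for distal peaks (red) and the other optimal peaks (grey). The dashed line is the value over all bases more than 5000 bp from a TSS (58.8%); both curves peak at the summit, and the distal curve dips below the dashed line before it returns to it.

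Of 10 words that led at the other peaks, 6 were at a smaller share of distal summits and 4 at a larger one. Words of 8 bases with at least 3 G or C, with both strands merged, were ranked on the 4075 other peaks by how many more summit windows than flanks held them, and then read at the distal peaks. No test was made of these counts. CAACACTG was at 4 of 801 distal summits (0.499%, 95% exact interval 0.136 to 1.27%), against 73 other summits (1.79%). ATCGATAG, which shares letters with the DRE, the site of the factor DREF, was found at 5 distal summits (0.624%) and 76 others (1.87%). CAGCACTG was at 1 and 54, AACTATCG at 1 and 51, GCTATCGA at 2 and 45, and ACTATCGA at 3 and 50. For the first 4 of these 6 the exact intervals of both classes did not overlap. The words were chosen on the other peaks, which raises their shares there, so the intervals do not give a fair comparison. Intronic peaks nearer to a TSS held these 4 in 0.341%, 0.0852%, 0.426% and 0.256% of cases, while peaks within 500 bp of a TSS held them in 2.91%, 3.22%, 2.04% and 2.04%. The 4 words with a larger distal share had overlapping intervals. CACTGAGA was at 17 distal summits (2.12%, 1.24 to 3.38%) and in 3 distal flanks, against 57 other summits (1.40%, 1.06 to 1.81%) and 4 of their flanks. TCAGTGCA was at 16 distal summits and in 2 distal flanks, against 48 and 13 at the other peaks, and AGATGGCG at 14 and 5, against 51 and 13. TACACTGA was at 12 distal summits and in 3 distal flanks, against 46 and 11 at the other peaks. CACTGAGA was in 0.330% and TCAGTGCA in 0.405% of all windows of this size more than 5000 bp from a TSS. In all, 63 distal summits (7.87%) and 19 distal flanks (2.37%) held at least 1 of the 10 words, against 401 (9.84%) and 114 (2.80%) of the other peaks.

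The windows below show the word CACTGAGA in capitals, in either direction, at 5 of the 17 distal peaks that hold it. Each is 109 bp of the plus strand centred on the summit. They lie at chr2L:19226483-19226591 (between lncRNA:CR44189 and CG31797), chr3R:18995858-18995966 (intron of gukh), chr2L:3440403-3440511 (between Pgant2 and CG2772), chrX:3025630-3025738 (intron of kirre) and chr3R:21493583-21493691 (between Fancm and lncRNA:CR44032).
lncRNA CR44189 to CG31797: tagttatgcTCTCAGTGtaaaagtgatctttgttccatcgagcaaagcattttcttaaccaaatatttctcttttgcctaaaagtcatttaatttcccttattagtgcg
gukh: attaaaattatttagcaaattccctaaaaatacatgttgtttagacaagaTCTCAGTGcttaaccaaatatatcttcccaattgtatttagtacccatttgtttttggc
Pgant2 to CG2772: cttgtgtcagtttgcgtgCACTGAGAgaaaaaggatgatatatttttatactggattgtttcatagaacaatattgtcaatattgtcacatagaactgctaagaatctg
kirre: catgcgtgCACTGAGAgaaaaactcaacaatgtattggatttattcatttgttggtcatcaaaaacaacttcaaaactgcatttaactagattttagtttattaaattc
Fancm to lncRNA CR44032: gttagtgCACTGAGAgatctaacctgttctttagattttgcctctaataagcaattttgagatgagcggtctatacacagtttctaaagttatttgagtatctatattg
In the last 3 of these the word runs into TCAGTGCA read on the other strand, since the 2 words share letters, and 4 distal peaks held both. The 17 peaks with CACTGAGA had signals of 106.1 to 391.3 with a median of 138.3. Of these 12 were intronic, 5 intergenic, and 12 had the support of every replicate. Their hosts included Sema1a, which encodes a semaphorin of axon guidance, drl, which encodes a receptor kinase of axon guidance, and hth.

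Fixed motifs of known factors were at between 2 and 300 of the 801 distal summits. The core GCNTACTT of the Su(Hw) insulator site was at 21 distal summits (2.62%, exact interval 1.63 to 3.98%) and in 8 distal flanks, against 76 (1.87%) and 42 at the other peaks. The CTCF core AGNNGGCGC was at 19 (2.37%, 1.43 to 3.68%) and in 9, against 90 (2.21%) and 68. All windows of this size more than 5000 bp from a TSS held the Su(Hw) core in 1.19% and the CTCF core in 0.736% of cases. The DRE (TATCGATA) was at 3 distal summits (0.375%) and 89 others (2.18%), and the promoter motif GGTCACACT of M1BP at 3 and 28. Of these other summits 85 and 27 lay within 500 bp of a TSS, and intronic peaks nearer to a TSS held the DRE in 0.170% of cases and the M1BP motif in 0%. The far windows held the DRE in 0.238% and the M1BP motif in 0.0539% of cases. The homeodomain core TAATTA was at 69 distal summits (8.61%) and in 36 distal flanks, and TATAAA at 189 (23.6%) and in 74. The other summits held TAATTA in 10.7% and TATAAA in 24.0% of cases. Both motifs consist of A and T only. The far windows held TATAAA in 12.7% and TAATTA in 7.099% of cases. The share for TAATTA lies inside the exact interval of the distal summits (6.76 to 10.8%). The GAGA repeat GAGAGAG was at 6 distal summits and in 16 flanks, the Zelda site CAGGTAG at 2 and in 3, the AP-1 site TGANTCA at 19 and in 17, and the E-box CANNTG at 300 and in 359. At the other peaks the repeat was in 1.01% of summits and 3.46% of flanks, and the Zelda site in 0.417% and 0.883%. The AP-1 site was there in 2.70% and 2.09%, and the E-box in 35.0% and 43.1%. For each of these motifs the summit and flank shares thus differed in the same direction in both classes. The far windows held the repeat in 1.28%, the Zelda site in 0.467%, the AP-1 site in 1.91% and the E-box in 39.2% of cases. Both strands were searched and letters may overlap between motifs. A match is a run of letters and not a shown site.

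Distal peaks lay mainly inside genes, in introns. Of the 801 summits 551 (68.8%, Wilson interval 65.5 to 71.9%) were intronic, 239 (29.8%, 26.8 to 33.1%) intergenic and 11 (1.37%, 0.769 to 2.44%) in exons. Of the 53.95 Mb that lie more than 5000 bp from a TSS, 52.6% are intronic, 38.0% intergenic and 9.37% exonic. Per Mb of that sequence there were 19.4 distal summits in introns, 11.7 between genes and 2.18 in exons. Far sequence as a whole held 14.8 summits per Mb, against 51.0 per Mb in sequence nearer to a TSS. Among intronic summits 265 (48.1%, 44.0 to 52.3%) were in the first intron of some transcript, against 31.3% of the intronic far bases. The 3 places did not differ in signal beyond their intervals: the medians were 156.7 (146.4 to 163.5) in introns, 156.0 (144.7 to 167.4) between genes and 136.9 (115.1 to 266.1) in exons.

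**Figure D2:**
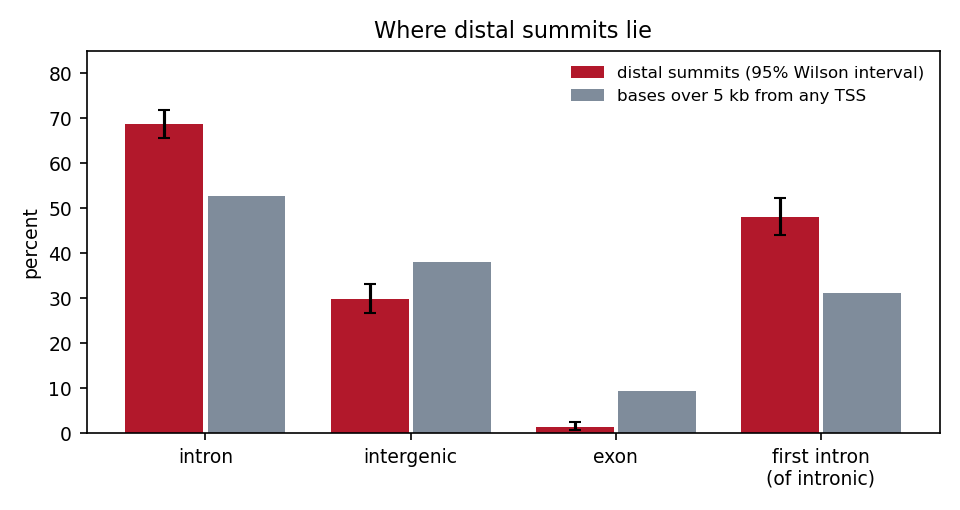
Percent of the 801 distal summits (red, with 95% Wilson intervals) and of all bases more than 5000 bp from a TSS (grey) in introns, between genes and in exons; the last pair gives first introns as a share of what is intronic. Red bars exceed grey ones for introns (68.8% and 52.6%) and first introns (48.1% and 31.3%), and fall short of them for exons (1.37% and 9.37%).

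The 11 exonic summits were led by Cals on chromosome 4 (signal 388.9) and by NetB (266.1), which encodes a netrin, and these 2 were picked out after their values were seen. Of the 551 intronic summits 535 lay in a protein-coding gene, and in 342 (62.1%) the nearest TSS was that of a gene around the summit. For the rest a start of a gene outside the host was closer. The rule leaves only genes long enough to hold far sequence. The hosts had a median length of 38831 bp, against 19487 bp over all 2053 genes with far sequence, of which 23.8% were longer than the median host. Each gene counted once in this comparison, which is not weighted by the far bases a gene holds. The longest intron around an intronic summit had a median of 22250 bp and reached 133764 bp, in kirre. Intergenic summits lay in 150 gaps with a median width of 20998 bp, against 13123 bp over all 1410 gaps with far sequence, each counted once. Of the 239 summits 143 (59.8%, 53.5 to 65.8%) were in gaps of at least 20000 bp. Such gaps held a larger share, 77.3%, of the far bases that lie in gaps. The widest gap was 82634 bp.

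The distance to the nearest TSS ranged from 5001 to 49858 bp, with a median of 8880 bp. There were 279 summits up to 7500 bp, 192 from there to 10000 bp, 249 to 20000 bp, 59 to 30000 bp and 22 beyond. Signal neither rose nor fell steadily with distance, with class medians of 160.9, 154.3, 147.4, 166.7 and 140.8 from the nearest class to the farthest. The farthest 5 peaks included 3 in introns of hth, which encodes a homeodomain partner of the Hox proteins, at 49858, 47640 and 45545 bp. Their signals were 120.1, 187.0 and 122.1. The other farthest peaks were in luna, a zinc-finger gene (43234 bp, signal 123.8), and in mamo, also a zinc-finger gene (42350 bp, signal 308.1). At the limit of the rule, the 5 nearest distal summits were 5001 to 5018 bp from a TSS with signals of 439.6, 425.6, 124.0, 104.9 and 165.5. The 5 summits just under the limit were 4982 to 4994 bp away, with signals of 183.7, 330.6, 295.1, 117.8 and 156.6.

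**Figure D3:**
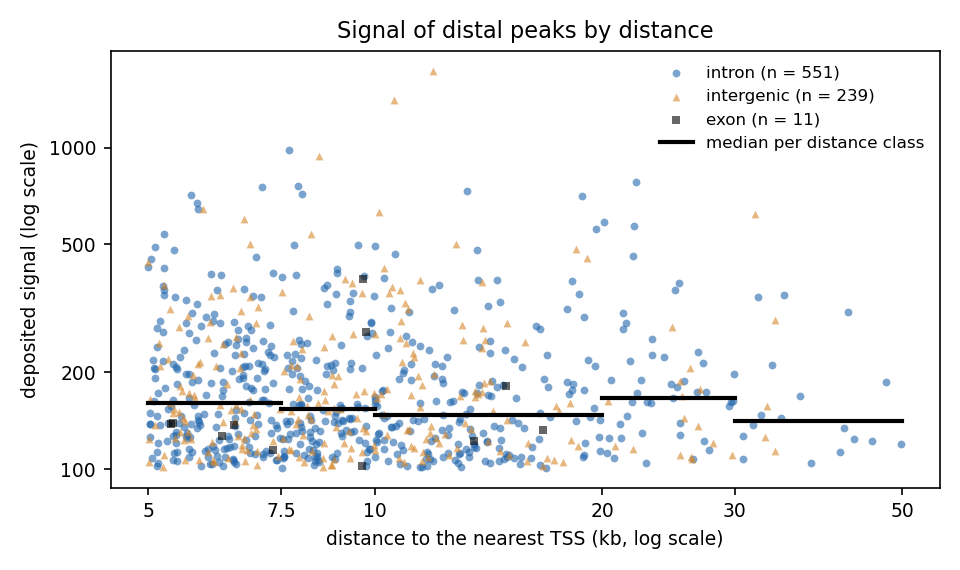
Deposited signal against distance to the nearest TSS in kb, both on log scales, for each distal peak, with shape and colour for its place. Horizontal bars are the medians of the 5 distance classes (140.8 to 166.7), and the 20 peaks of highest signal lie 5693 to 31946 bp from a TSS.

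By signal, the authors' value for each peak, distal peaks ranked below the rest of the list. Their median was 155.4 (95% order-statistic interval 147.9 to 162.3), against 175.2 (170.8 to 180.1) for the other peaks. The median was 173.0 in introns nearer to a TSS and 159.6 (152.2 to 169.1) in gaps nearer to a TSS, and the last interval overlaps that of the distal peaks. Among the 487 optimal peaks of highest signal there were 36 distal ones (4.49% of the distal peaks, 3.26 to 6.16%) and 451 others (11.1%, 10.1 to 12.1%). The share was 5.59% (3.89 to 7.96%) of intergenic peaks nearer to a TSS, which overlaps the distal interval. It was 8.77% of intronic peaks nearer to a TSS and 13.4% of peaks within 500 bp. The highest distal signal was 1734.5, against 11613 among the other peaks.

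The strongest distal peaks were found by every replicate. The optimal list was made to keep peaks that the replicates reproduce, so such support at high signal is favoured by its making. Ranks are given within each replicate's own list, 1 being the highest signal. The top one lay 11921 bp from the nearest TSS, in the 36783 bp gap between Su(z)2 and CG13323 on 2R, with ranks 38, 33 and 30 in replicates 1, 2 and 3. Su(z)2 encodes a Polycomb group protein related to Psc, a subunit of Polycomb repressive complex 1. A second peak of the top 20 lay in the gap between CG13321 and Psc itself (signal 642.9, ranks 260, 228 and 206). The peak between CG9701 and CG42852 had a signal of 1409.4 and ranks 46, 42 and 55. The peak in the first intron of Gug, which encodes the Atrophin corepressor, had 979.9 and ranks 108, 87 and 109. The peak by lncRNA:CR45695 had 939.6 and ranks 119, 90 and 129, in a gap whose nearest coding genes are RFeSP and chinmo, a zinc-finger gene. The peaks at CG9701, Gug and lncRNA:CR45695 and the one by Su(z)2 thus kept within the highest 129 ranks of lists of 26145 to 27004 candidates.

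Next came peaks in introns. The peak in fz, the gene of the Wnt and planar polarity receptor Frizzled, was 22182 bp from a TSS with a signal of 781.3 and ranks 195, 144 and 123. An intronic peak of Hr3, a nuclear receptor gene of the ecdysone response, had 758.6 and ranks 168, 163 and 143. The gene models CG46321 and CG12912 also span that summit. The peak in JIL-1, which encodes a histone H3 kinase, had 756.5 and ranks 191, 133 and 170. That in rdx, whose product directs the Hedgehog effector Ci to degradation, had 732.7 and ranks 175, 239 and 141. Introns of simj (717.9), which encodes a NuRD complex subunit, CG32486 (713.3), sbb (707.2), Hr4 (671.8) and tara (645.5) followed. The rest of the top 20 were the gaps lncRNA:CR45411 to lncRNA:CR43785 (631.4), NijA to CG43245 (621.3) and lncRNA:CR44363 to CG7560 (601.1), sbb again (585.7 and 568.5) and CG6959 (557.2). Of these 20 peaks 13 were intronic, 11 of them in a first intron, and 7 were between genes. All 20 had the support of every replicate, and the lowest rank among them was 690, at an sbb peak in replicate 3, where replicates 1 and 2 gave 238 and 170.

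Replicate support was counted as overlap with the 4876 candidates of highest signal in that replicate. Every replicate supported 547 of the 801 distal peaks (68.3%, 64.99 to 71.4%), against 3006 of the 4075 others (73.8%, 72.4 to 75.1%), and 72.9% of all optimal peaks. Nearer to a TSS the share was 69.9% (65.7 to 73.7%) of intergenic and 72.5% of intronic peaks. A further 186 distal peaks had 2 supporting replicates, 62 had 1 and 6 had none. Of the 186, replicate 1 was the one that failed to support 78, replicate 2 54 and replicate 3 54. Some candidate of every replicate, of whatever rank, overlapped 799 of the 801. By replicate, 83.1%, 87.4% and 88.5% of distal peaks were supported in replicates 1, 2 and 3, against 89.3%, 90.2% and 87.3% of the other peaks. Distal peaks were thus lower in replicates 1 and 2 and higher in replicate 3. The means were 86.4% ± 2.83 and 88.97% ± 1.50 (SD, n = 3 each), and an exact permutation test over the replicates, two-sided, gave p = 0.30, where 0.10 is the smallest p that 3 values against 3 allow.

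Ranks in the replicates differed the same way in all of them. The median rank of the candidate matched to a distal peak was 3044, 2770 and 2662 in replicates 1, 2 and 3, against 2345.5, 2356.5 and 2401 for the other peaks, so the 2 sets of values did not overlap. The means were 2825 ± 197 and 2368 ± 29.4 (SD, n = 3 each; exact permutation test, two-sided, p = 0.10, the smallest possible). With the values paired by replicate, the exact sign-flip test gave p = 0.25, the smallest that 3 pairs allow. Against intergenic peaks nearer to a TSS, with medians of 2758, 2672 and 2645.5, the exact permutation test gave p = 0.30, and distal peaks ranked lower in 3 of 3 replicates. Replicate summits lay at a median of 14, 10 and 15 bp from the distal optimal summit, against 15, 9 and 15 bp for the other peaks. Within 50 bp were 84.7% ± 0.650 of distal and 85.3% ± 1.49 of other summits (SD, n = 3 each; exact permutation test, two-sided, p = 0.70).

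**Figure D4:**
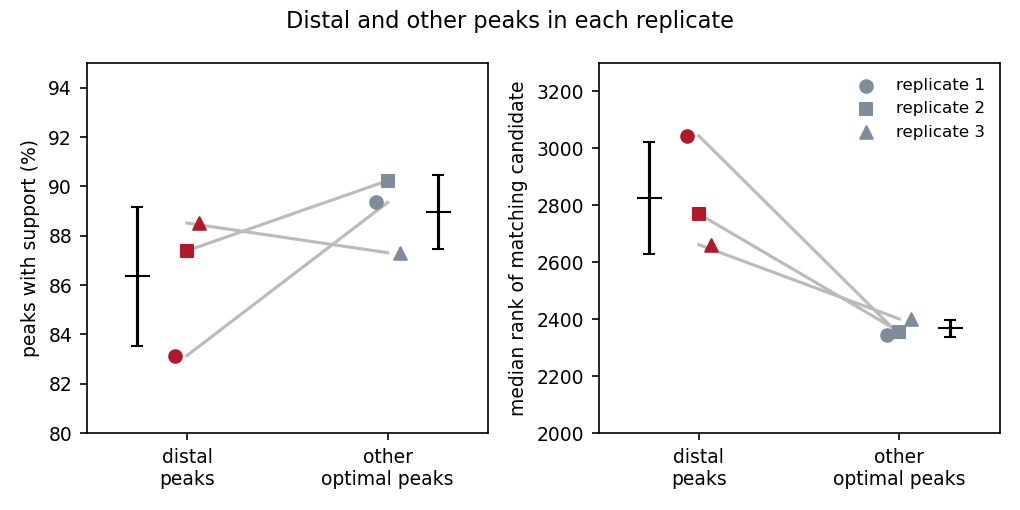
Left, percent of peaks supported in each replicate; right, median rank of the matching candidate (a larger number is a weaker peak); distal peaks are red and other optimal peaks grey, a grey line joins the values of 1 replicate, and black bars are mean ± SD. Neither vertical axis starts at 0. Support of distal peaks is lower in replicates 1 and 2 and higher in replicate 3, while median ranks of distal peaks are larger in all 3.

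Among peaks of like signal, the share supported by every replicate was larger for distal peaks in some signal classes and smaller in others. With the optimal list cut by signal into 4 classes of like size, in the highest class every replicate supported 137 of 137 distal peaks and 99.5% of 1082 others. In the next class the shares were 98.5% of 203 and 99.1% of 1016, and in the third 77.2% (71.3 to 82.2%) of 224 and 73.7% (70.8 to 76.3%) of 995. In the lowest class they were 15.6% (11.5 to 20.8%) of 237 and 19.2% (16.9 to 21.8%) of 982. The replicates parted there: replicate 1 supported 55.3% of distal and 64.2% of other peaks, replicate 2 supported 60.8% and 66.2%, and replicate 3 supported 68.8% and 61.0%. The part of signal in the overall difference was not tested.

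The 5 distal peaks of highest signal that some replicate did not support ranked far below the top 20. The first was in an intron of cic, which encodes the repressor Capicua (signal 205.1, ranks 1567, 1435 and 4968). The others were by croc, a forkhead gene (198.0, ranks 1954, 1298 and 5131), in vn, which encodes a ligand of the EGF receptor (189.3, ranks 2422, 1075 and 7274), in MESR3 (164.3, ranks 4547, 1748 and 6181) and in kirre (162.8, ranks 5230, 2303 and 2202). Replicate 3 was the one without support at the peaks of cic, croc, vn and MESR3, and replicate 1 at kirre. Each had a candidate in all replicates.

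Candidates far from a TSS reached the optimal list less often than nearer ones. Of the 21656 candidates called on the pooled replicates 5207 (24.0%) were distal, and 897 of these (17.2%, 16.2 to 18.3%) overlapped an optimal peak. Of the nearer candidates 28.7% (28.0 to 29.3%) did, and 25.9% of all. The nearer ones include 6824 candidates within 500 bp of a TSS, of which 39.2% overlapped an optimal peak. Median signal was 46.8 for the distal candidates and 54.3 for the nearer ones. Distal candidates in exons overlapped an optimal peak in 4.64% of cases. Among the 4876 highest-signal candidates of each replicate, 15.9%, 16.3% and 17.1% were distal in replicates 1, 2 and 3, close to the 16.4% of the optimal list.

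Several genes held runs of distal summits. In all 330 genes had at least 1, which is 16.1% of the 2053 genes with sequence more than 5000 bp from a TSS, and 60 genes had 3 or more. The count was 10 in kirre, which encodes an adhesion protein of myoblast fusion, 9 in hth and 8 in rdx. The 10 in kirre had signals of 102.4 to 306.6, and every replicate supported 5 of them. In hth signals were 120.1 to 273.4 (7 of 9 supported by every replicate), and in rdx 102.2 to 732.7 (6 of 8). There were 7 in sbb, a zinc-finger gene (111.5 to 707.2, 6 with full support), and 7 in tara, a trithorax group gene (160.9 to 645.5, all 7 with full support). These counts are not scaled by gene length. Per Mb of its own far sequence tara had 379.6 distal summits and kirre 43.2, against 19.4 in all far introns. The rates of single genes count their far exons as well as introns, so the bases differ in kind. These genes were picked for their counts, which by itself favours rates above the average. Hr4, lncRNA:CR32773, cv-c and lncRNA:CR44357 had 6 each. A summit in overlapping genes counts in each of them, as do 2 of lncRNA:CR32773 that also lie in bi. At 5 each were fz, Raf, NetA, lncRNA:CR46006, SKIP and Ten-a. Raf encodes a kinase of the MAPK pathway, NetA a netrin and Ten-a a teneurin.

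**Figure D5:**
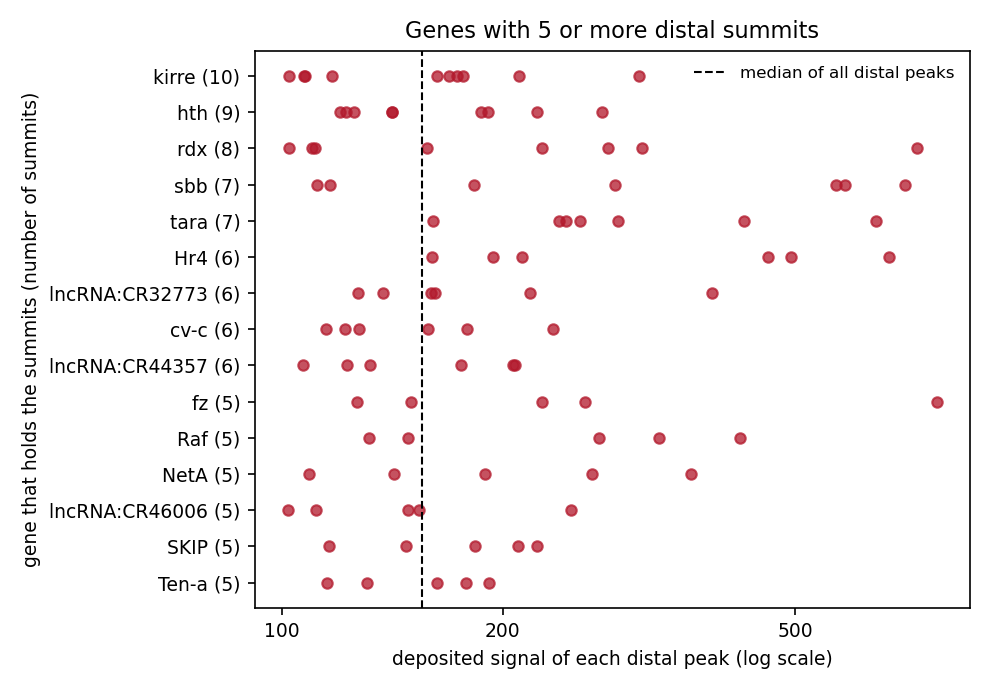
Deposited signal (log scale) of each distal peak in the 15 genes with 5 or more distal summits, 1 row per gene with the number of summits in brackets; the dashed line is the median of all distal peaks (155.4). All peaks of tara and Hr4 lie above that median, while those of the other genes fall on both sides of it.

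Genes with 4 distal summits were simj, Eip75B, cv-2, Pvf3, gpp, Snoo, CG43759, Drak, Antp with the overlapping CG46458, eIF5B, ed, Eip74EF, pyd, ftz-f1 with the overlapping lncRNA:CR45939, Ptp10D, fz2, msn and pigs. Full support was the rule at Antp (4 of 4), a Hox gene, and at ed, pyd, Snoo, simj, Eip75B and Eip74EF (4 of 4 each). It was absent at fz2 (0 of 4, signals 101.9 to 135.7), which encodes another Frizzled receptor. Genes with 3 were CG6959, kibra, CG42238, mtgo, sog, S, ct, Grip, CG8312, dar1, stx, Tet, ush, mam, lncRNA:CR44999, Mnt, jing, luna, CG1677, Abl, px, Awh, aus, CG6040 and Zdhhc8. Of these, sog encodes an inhibitor of the BMP ligand Dpp, S the membrane protein Star of EGF receptor signalling, mam the Notch coactivator Mastermind and ct the homeodomain protein Cut. The 3 summits in CG1677 are also among those of lncRNA:CR44357, and the 3 in lncRNA:CR44999 also lie in Myc or CG12535.

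Some distal peaks also lay together in single gaps and in short stretches. The gaps between NijA and CG43245 (75047 bp), between lncRNA:CR44363 and CG7560 (19063 bp) and between vvl and lncRNA:CR45115 (70507 bp) held 6 summits each, of which every replicate supported 6, 6 and 3. vvl encodes a POU domain factor. The 6 by CG7560 lay within 2925 bp (signals 122.4 to 601.1). Similar runs of 6 were in rdx, over 10645 bp, and in sbb, over 9351 bp. Gaps with 5 or 4 included that upstream of CG6244 (5; next coding gene comm, which encodes a regulator of axon crossing) and that beside the cell death gene rpr (4). The Wnt ligand genes Wnt4 and wg had 3 between them, at signals of 142.3 to 313.7, and the head homeobox gene oc had 3 on its side towards Rubicon and 1 on the other side. Between lncRNA:CR44552 and mirr, in the Iroquois gene cluster, 3 summits of 102.7 to 116.8 lacked full support. In all, 293 distal summits (36.6%) had another within 5000 bp, and chaining at that distance gave 626 groups, of which 508 were single summits and 41 held 3 or more. The same share was not counted for the other peaks or for random far positions. These numbers therefore do not show clustering beyond the density of summits.

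Of the 562 distal summits inside genes, those in listed developmental and signalling genes took a larger share than these genes' share of far genic bases. Developmental transcription factor genes held 68 (12.1%, 9.66 to 15.1%), against 6.36% of the bases. Members were at 30 of 116 such genes with far sequence, led by Hr3 (758.6), Hr4 (671.8), Eip75B (481.3) and pnt (408.6), an ETS factor gene. Signalling genes held 39 (6.94%, 5.12 to 9.35%), against 2.55% of the bases, at 20 of 56 genes, led by fz (781.3), N (468.2), which encodes Notch, Raf (421.3) and Pvf3 (397.9), a PDGF and VEGF type ligand. Axon guidance and adhesion genes held 62 (11.0%, 8.70 to 13.9%), the same as their 11.0% of the bases, at 25 of 107 genes, with fz, NetA (361.4), kirre (306.6) and Fas3 (288.8) leading. fz stands in both of the last lists.

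The remaining lists took smaller shares of the summits than of the bases, though not of the genes in each case. Ion channel and transmitter receptor genes held 6 distal summits (1.07%, 0.490 to 2.31%), against 4.34% of the bases, at 4 of 63 genes: Ca-beta (176.2), Ca-alpha1T (139.2), Dop1R2 (120.0) and Octalpha2R (102.6). RNA-binding protein genes held 10 (1.78%, 0.969 to 3.24%), against 3.94%, but were at 8 of 31 genes (25.8%, against 16.1% of all genes with far sequence), led by brat (228.1), how (212.5), cpo (205.1) and msi (182.4). Muscle and cytoskeleton genes held 6 (1.07%, 0.490 to 2.31%), against 2.16%, which lies inside the interval, at 6 of 45 genes, led by Myo10A (279.6), if (244.4), jv (162.0) and Dg (144.3). Summits in 1 gene share their neighbourhood, so the intervals on these shares are too narrow, and the shares were not tested.

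The chromosome arms differed in how many distal peaks they held. The distal share of optimal peaks was 19.7% (17.2 to 22.4%) on X, 18.0% (15.8 to 20.4%) on 3L, 16.6% (14.5 to 18.8%) on 3R, 14.9% (12.7 to 17.3%) on 2L and 12.4% (10.3 to 14.8%) on 2R. The small chromosome 4 had 3 of 20. Per Mb of far sequence X had 18.6, 2L 16.4, 3L 15.9, 3R 14.5, 2R 9.96 and chromosome 4 had 5.02. X and 2R stood at the ends of both orders among the 5 long arms. Neighbouring arms in the order of shares had overlapping intervals.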

How the data were processed

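The authors deposited candidate peaks for each replicate and for the pooled replicates, and an optimal list made from these by the irreproducible discovery rate, per the deposited README files. The deposited signal value of a peak is on its own list's scale, so it was only ranked within a list. The sources used here do not name the aligner, caller, settings or threshold. Neither the control nor the dm3 lists were used. How reads that map to several places were treated is unknown, which can lower counts in repeats.

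Summits were set against Ensembl BDGP6.54 gene models (release 115, arms 2L, 2R, 3L, 3R, 4 and X) and the RefSeq genome of the same assembly. Distances, places, supports, motifs and words were computed with Python 3.11.15, NumPy 2.4.6, pandas 2.3.3 and SciPy 1.17.1 and tested on simulated data. Support needs 1 bp of overlap. Only comparisons over the 3 replicates were tested, by exact permutation; these replicates come from 1 line. The named peaks are the 20 of highest signal, the first 5 lacking a replicate, the 5 farthest, 5 on each side of the limit, genes with at least 3 summits, and up to 4 genes per list. The members and lists were chosen with earlier results of these data known. Alternatives were other gene models, distance limits, overlap rules and windows, and leaving out each replicate in turn.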

Additional observations from a re-analysis of the deposited data

How the results depend on the processing

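The number of distal peaks was 711 to 1195 under other gene models, midpoints or single intervals, and 1356 with a limit of 2500 bp, 330 with 10000 bp and 340 in the 2438 optimal peaks of highest signal. Intronic counts in the last 3 were 906, 227 and 239, and 929 when only the outermost start of each gene gave a TSS; shares stayed at 59.8 to 77.7% under all alternatives run. Full support was counted at 927, 217 and 337 in the same 3 settings, at 836 with outermost starts and at 247 with 2438 candidates per replicate; without 1 replicate it was 601 to 625. The median signal was 162.7 with outermost starts and 245.0 in those 2438 peaks. The support difference was -2.61 percentage points and became 0.0885 with all candidates, where 799 of 801 were supported; without 1 replicate it was -4.52 to -0.820. With 2438 candidates it was -10.6 (exact permutation test, p = 0.10). The median rank of distal peaks was larger in every alternative, by 258.3 to 556.0, and by 337.3 to 556.0 without 1 replicate, where the smallest p is 0.333. Pooled candidates reached the list in 15.4% of cases with summits within 100 bp. With flanks at 500 bp the homeodomain core exceeded its flanks by 0.250 percentage points in place of 4.12, and the DRE by 0. The counts move with how many peaks a setting admits, and the cause of the other changes was not tested. Depth is unknown and limits the reading of weak peaks. A replicate block was an alternative chosen after seeing the data. With it, exact sign-flip tests gave p = 0.50 for the support difference of -2.61 and p = 0.25 for the rank difference of 457.7. The smallest p that 3 pairs allow is 0.25, so these tests could not have changed a call and say nothing on robustness.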
